A study of Mus musculus with 11 samples.

Results

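Wnt10a was examined beside 5 other Wnt ligands (Wnt2, Wnt4, Wnt5a, Wnt9b and Wnt11) and 3 genes that Wnt signalling switches on (Axin2, Lgr5 and Lef1) in the livers of newborn mice. All probes whose gene name or current symbol was one of these 9 genes were taken, which gave 12 probes of the 41174 on the array, and 9 of the 20809 genes with a symbol. Wnt10a was chosen by its measured levels in these same arrays, high in control liver on day 2 and not well above background in mutant liver, and the other 8 were taken for their roles beside it. The values of Wnt10a are therefore given as a description, with no test, and it enters no count of called members or list genes.

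Total RNA of newborn liver was measured on 11 single-colour Agilent whole mouse genome arrays, and the labels mention no pooling of animals. Mutant pups carried both a Cre recombinase driven by the AFP (alpha-fetoprotein) promoter, which is active in fetal liver cells, and the Rosa26-lsl-NICD allele, from which Cre releases a permanently active intracellular domain of Notch. Control pups carried the Rosa26-lsl-NICD allele alone, so that no group with Cre alone stood beside them, and all were on a mixed 129 x C57BL/6 background. Livers came from 2 control and 3 mutant pups on the day of birth (day 0) and from 3 control and 3 mutant pups on postnatal day 2, and the labels do not say whether any of them shared a litter.

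Wnt proteins are secreted, lipid-carrying signals that bind Frizzled receptors together with the co-receptors Lrp5 and Lrp6. Bound receptors stop the destruction of beta-catenin, which then enters the nucleus, joins the DNA-binding factors of the Tcf/Lef family and switches on targets such as Axin2. In the liver, Wnt2 and Wnt9b are known as signals of the endothelial cells near the central veins, where they keep hepatocytes in their pericentral state, and Wnt4, Wnt5a and Wnt11 often act without beta-catenin. Wnt10a is best known from teeth, hair follicles and other skin appendages, where loss of the gene disturbs their development.

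The oligonucleotides that read these genes are 60 bases long and are named here by their positions on mouse build mm8, as the array files give them. Most lie within 1 unbroken stretch of the genome, and the first 30 bases of each main probe show which transcript was read, 5′ to 3′. Whether a stretch is coding or untranslated was not analysed here.
Wnt10a, chr1:74737266-74737325, plus strand: tttcacttaacagatatttatttttgcgct
Wnt2, chr6:17939284-17939343, minus strand: aaagagtaagcaagggctttaactaagtga
Wnt9b, chr11:103543658-103543717, minus strand: tgtctttctagccaaagcttcctctctcaa
Wnt11, chr7:98728667-98728727, plus strand: gaaactgataggattaaaaataacctggca
Axin2, chr11:108766756-108766815, plus strand: ttctactttagactgtaaattatgcattat
Lgr5, chr10:114855901-114855960, minus strand: aaacaccgcttgtatcatttgttcagctaa
Lef1, chr3:131213273-131213332, plus strand: atctgtttttattagccgattagtgggaat

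The Wnt4 and Wnt5a probes and a further Lef1 probe each cover more genome than their own length, so their bases are joined across at least 1 gap in the genome. The Wnt4 probe runs over chr4:136567851-136568419, the Wnt5a probe over chr14:27345426-27349388 and the Lef1 probe over chr3:131194088-131212249. Wnt ligands are related in sequence, and the Wnt4 and Wnt5a probes start on related stretches. Lined up without gaps over 51 bases, they share 25, which are shown in capitals.
Wnt4: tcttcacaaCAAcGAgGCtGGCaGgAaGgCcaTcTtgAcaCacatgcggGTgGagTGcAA
Wnt5a: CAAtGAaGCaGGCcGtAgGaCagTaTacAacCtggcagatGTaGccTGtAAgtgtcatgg
Lef1: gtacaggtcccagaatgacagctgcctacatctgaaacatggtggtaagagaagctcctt

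Levels are given as a percentage of the 75th percentile of the signals on the same array, so that 100% is a probe brighter than 75% of the spots of that array. A level is comparable between arrays for 1 probe, not between probes. A sum of marker levels therefore mostly follows its brightest probes. The 75th percentile itself lay between 607.72 and 1301.55 intensity units, and between 63.3% and 68.6% of the spots on an array were well above background by the scanner software's own flag. A reading called below background here is one without that flag. Arrays of a group correlated at 0.983 or more except mutant day 0 replicate 3, which correlated at 0.952 and 0.954 with the other two of its group. The Notch targets Nrarp and Hey1 were higher in the mutants on both days, with log2 differences of 3.75 ± 0.30 (SE) and 2.46 ± 0.39 at day 0 and of 3.82 ± 0.27 and 3.74 ± 0.35 at day 2, and no overlap between the groups. Both day 0 control pups were male and all 3 day 0 mutants female by their sex-linked transcripts, so sex and genotype cannot be told apart at day 0. Each group held the same position on every slide, so that the effects of position and of group cannot be told apart either.

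Wnt10a was well above background on 3 of the 11 arrays, all from control liver on day 2. Its level there was 23.1%, 14.6% and 30.6% of the array's 75th percentile in replicates 1, 2 and 3. In control liver on day 0 it read 0.356% and 0.455%, in mutant liver on day 0 it read 0.703%, 0.274% and 0.37%, and in mutant liver on day 2 it read 1.0%, 1.14% and 0.589%. None of these 8 readings was well above background, and all lay under the dimmest probe that was well above background on the same array, which stood between 1.2% and 1.81%. The 3 control day 2 arrays thus lay above all others, with a mean of -2.20 ± 0.54 (SD, n = 3) on the log2 scale relative to the 75th percentile, or 21.8% as a geometric mean.

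The 8 low readings of Wnt10a were not of 1 kind. On the 3 mutant day 2 arrays the scanner software called the spot brighter than its background, though not well above it. On day 0 it did so on 1 of 2 control arrays and 1 of 3 mutant arrays. On the other 3 day 0 arrays it had replaced the reading by a stand-in value, so differences among the low readings are not read as a change of the transcript.

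**Figure D1:**
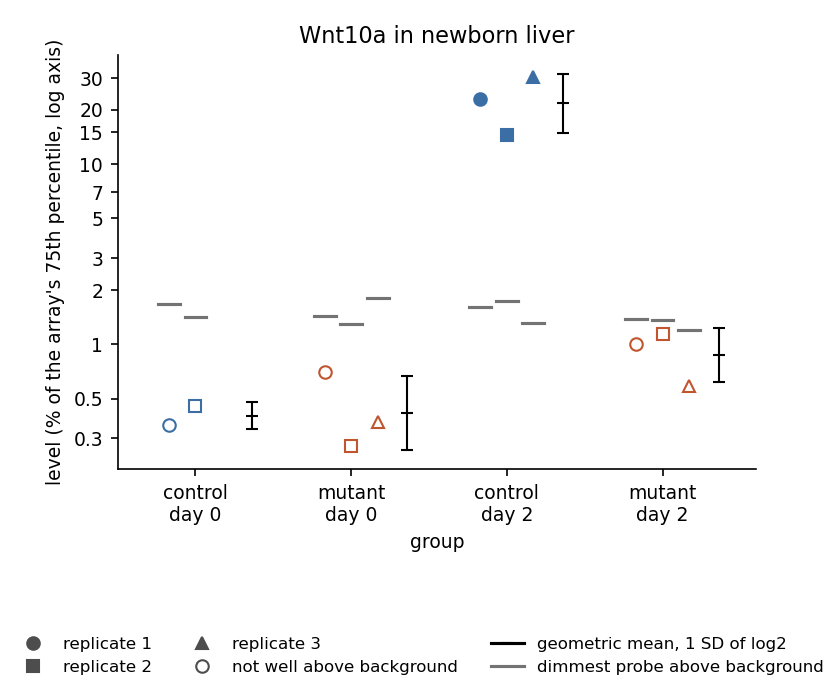
Level of Wnt10a on each of the 11 arrays, as a percentage of the array's 75th percentile on a log axis, by group. Filled points are well above background, open points are not, grey lines mark the dimmest probe well above background on that array, and black bars show the geometric mean with 1 SD of log2. The 3 control day 2 arrays sit between 14.6% and 30.6%, and the other 8 points lie under their grey lines.

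For a group in which a probe was well above background nowhere, the level entered is the higher of the reading and the dimmest probe well above background on that array, and the ratio is given as "at least". By that bound Wnt10a was at least 16.5-fold higher in control than in mutant liver on day 2, and at least 14.2-fold higher in control liver on day 2 than on day 0. Between the mutant groups of day 0 and day 2, and between the genotypes on day 0, neither side was well above background and no ratio was formed. In the authors' deposited table of RMA log2 values, Wnt10a read 8.03, 7.42 and 8.43 on the control day 2 arrays and between 4.7 and 5.08 on the others.

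Wnt10a was chosen for its detection in this 1 group, so the count of genes that share the pattern is a description only. Of 15771 genes, 4 were well above background on all 3 control day 2 arrays and on no other array, against 9, 15 and 14 genes for the control day 0, mutant day 0 and mutant day 2 groups in turn. Beside Wnt10a at 21.8%, these were Cacnb4, a calcium channel subunit, at 3.78%, the transporter Slc22a28 at 3.01% and Lingo3, a membrane protein, at 1.9%.

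Wnt10a lies on chromosome 1 next to another Wnt gene, Wnt6, and the RefSeq gene order (assembly GRCm38.p6, used for names only) runs Cyp27a1, Prkag3, Wnt6, Wnt10a, Cdk5r2, Fev and Cryba2. Of these 6 neighbours 4 were bright enough to be tested, and limma called none of them between the genotypes on day 2, against 15.9% of all genes. On that day Cdk5r2 differed by -0.82 ± 0.54 (SE, log2, adjusted p = 0.339) and Fev by -0.58 ± 0.37 (adjusted p = 0.333). Wnt6 read 9.9% and 9.06% in control day 0, 12.2%, 13.7% and 7.17% in control day 2, 12.7%, 8.99% and 12.0% in mutant day 0 and 8.0%, 8.66% and 5.24% in mutant day 2 liver. The groups overlapped, with a log2 difference at day 2 of -0.57 ± 0.28 (SE, adjusted p = 0.205). Cyp27a1, a bile acid enzyme, fell by 1.31 ± 0.26 in control liver from day 0 to day 2 (adjusted p = 0.018) and differed by -0.12 ± 0.23 between the genotypes on day 2 (adjusted p = 0.772).

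The genes whose levels over the 11 arrays were most like those of Wnt10a were found by Pearson correlation of log2 levels, with every value under 1.41% raised to that floor. Among 10404 genes that spanned at least 1 log2 unit, the first 8 included Slc17a1 and Recql4 (both r = 0.954), Slc22a28 (0.945), Lrwd1 (0.933), Tmem88b (0.933), Rrm1 (0.927) and Cyb5a (0.923). The points are 11 arrays of 4 groups that share Wnt10a's one high group, so these coefficients describe a shared group pattern and carry no test. Recql4, a DNA helicase, averaged 60.9% in control day 2 liver and 31.0%, 26.8% and 32.2% in control day 0, mutant day 0 and mutant day 2 liver. Rrm1, a subunit of the enzyme that makes DNA precursors, averaged 2300% in control day 2 liver and between 1170% and 1420% in the other groups. The choice of genes moved with the treatment of low values. Without the floor 1 of the 8 remained among the first 8, with the normexp background correction 2 did, and without mutant day 0 replicate 3 there were 4.

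The remaining members were tested with limma, and a gene was called where its p-value, adjusted over all 15771 genes, was under 0.05. At that rule 2.18% of all genes were called between the genotypes on day 0 (1.54% higher and 0.64% lower in mutants), 15.9% on day 2 (9.5% and 6.37%) and 15.5% over both days (8.73% and 6.73%). Between the days 10.5% were called in controls (5.12% higher and 5.43% lower on day 2) and 20.0% in mutants (9.09% and 10.9%). For the difference of the genotype effects 0.273% were called, 0.235% higher and 0.038% lower. Of the 7 tested members other than Wnt10a, none was called on day 0 (1 at an unadjusted p under 0.05), 1 was called on day 2 (4 unadjusted) and none over both days (2 unadjusted). Between the days, none was called in controls (2 unadjusted) and 1 in mutants (2 unadjusted), and for the difference of the genotype effects none was called (3 unadjusted). These shares are near or under those of all genes, and only Wnt2 among the tested members passed. Without mutant day 0 replicate 3 the counts over all genes were larger, at 3961 against 2439 over both days and 4610 against 2504 at day 2. List counts given below without that array stand beside these larger counts. Shares over all genes with the replicate number as a block are not given here.

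Groups that do not overlap were common in these arrays. On day 0 every array of a genotype lay on the same side of every array of the other for 31.9% of all genes tested, and on day 2 for 45.5%. Between the days the share was 56.9% in controls and 43.1% in mutants. Of the 7 tested members this held for 1 on day 0 (Wnt9b), for 4 on day 2 (Wnt2, Wnt11, Axin2 and Lgr5), for 4 between the days in controls (Wnt9b, Wnt11, Lgr5 and Lef1) and for 2 between the days in mutants (Wnt2 and Axin2).

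Wnt2, an endothelial ligand that promotes hepatocyte growth, was lower in mutant liver on day 2. It read 114% and 83.1% in control liver on day 0, and 114%, 112% and 85.3% in control liver on day 2. In mutant liver it read 95.2%, 113% and 71.5% on day 0, and 48.3%, 56.7% and 59.0% on day 2. The 3 mutant day 2 arrays were the lowest of all 11, and the other 3 groups overlapped one another, with geometric means of 97.5%, 103% and 91.5% for control day 0, control day 2 and mutant day 0.

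Against control liver of the same day, Wnt2 fell in the mutants by 0.92 ± 0.21 (SE) on the log2 scale at day 2, or 1.89-fold (adjusted p = 0.0195), and differed by -0.09 ± 0.24 at day 0 (adjusted p = 0.89). The difference between these effects was -0.83 ± 0.32 and did not pass (adjusted p = 0.297). From day 0 to day 2 Wnt2 fell by 0.75 ± 0.21 in mutants (adjusted p = 0.0389) and differed by 0.08 ± 0.24 in controls (adjusted p = 0.849). On each slide the day 2 mutant was lower than the control, by log2 differences of -1.24, -0.98 and -0.53. The day 2 call was lost without control replicate 1 (-0.84, adjusted p = 0.0746), control replicate 2 (-0.86, 0.0691), mutant replicate 1 (-0.83, 0.0723) or mutant replicate 2 (-0.95, 0.057) of that day. The call between the days in mutants was kept under 10 of 19 alternatives, and was lost, with adjusted p up to 0.111, without replicate 1 or 2 of control day 2 or mutant day 0, or without any of the 3 mutant day 2 arrays. It was also lost with no filter on dim probes (adjusted p = 0.0566) and with pup sex as a covariate (-0.64, adjusted p = 0.088).

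Whole liver was measured, so fewer cells of a type and less RNA per cell cannot be told apart. The summed level of 9 endothelial markers ran from 1520% to 1990% in control and from 1350% to 1800% in mutant liver on day 2, and from 1720% to 2230% over the day 0 arrays. Of these 9 markers, all tested, limma called Emcn higher (0.91 ± 0.19, adjusted p = 0.0112) and Stab2 (-0.70 ± 0.18, adjusted p = 0.0318) and Fcgr2b (-0.79 ± 0.20, adjusted p = 0.029) lower in mutants on day 2. The shares over all genes were 9.5% higher and 6.37% lower. Stab2 and Fcgr2b are receptors of the liver's sinusoidal lining. Their part in the lower Wnt2 level was not tested.

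Wnt9b, the other ligand known from central vein endothelium, was well above background on all 11 arrays and was called in no comparison. It read 9.21% and 6.89% in control day 0, 3.96%, 4.05% and 6.02% in control day 2, 4.95%, 6.04% and 2.78% in mutant day 0 and 4.81%, 6.37% and 5.31% in mutant day 2 liver. Both control day 0 arrays lay above all others. The log2 difference between the genotypes was -0.87 ± 0.33 on day 0 (SE, adjusted p = 0.261) and 0.25 ± 0.30 on day 2 (adjusted p = 0.614). In controls the later day lay 0.80 ± 0.33 below the earlier one (adjusted p = 0.149). Without mutant day 0 replicate 3 this last difference passed, with adjusted p = 0.0381.

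Wnt4, a ligand known from kidney tubules and the female reproductive tract, had the largest spread of the 9 members in control liver on day 2 (SD 1.07 on the log2 scale). It read 84.6% and 75.4% in control liver on day 0, and 18.0%, 27.7% and 76.1% in control liver on day 2. In mutant liver it read 45.3%, 54.2% and 206% on day 0, and 59.3%, 117% and 139% on day 2. Control replicate 3 of day 2 lay inside the range of the mutants, so the groups overlapped.

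On day 2 the log2 difference of Wnt4, mutant minus control, was 1.56 ± 0.66 (SE) and was not called (adjusted p = 0.146). Day 2 arrays with the same replicate number share a slide and deviated together, and there the mutant was higher on all 3 slides, by 1.72, 2.08 and 0.86. With the replicate number as a block, the same difference of 1.56 passed the threshold (adjusted p = 0.0199), and so did a fall of 1.76 in controls from day 0 to day 2 (adjusted p = 0.0373, against -1.25 ± 0.74 and 0.295 without the block). The block takes 1 slide effect for both days, but same-number control arrays hardly deviated together across the days (r = -0.00704 and 0.129). Control day 0 also held no replicate 3. On day 0 the genotypes differed by 0.00 ± 0.74, with mutant replicate 3 alone at 206%. That replicate also had the highest summed level of stellate cell and fibroblast markers, at 17200% against 7370% to 10600% on the other 4 day 0 arrays. On day 2, mutant replicate 1 had the lowest Wnt4 level of its group and the highest marker sum, at 11600%. Control replicate 3 of day 2, the highest of its group in Wnt4, had a sum of 5570%, within the group's range of 5500% to 6300%. The part of these markers in the Wnt4 level was not tested.

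Wnt11, a ligand of cell movement and polarity, was higher on every mutant array than on every control array at day 2. It read 5.5% and 8.04% in control liver on day 0 and 4.27%, 4.58% and 4.27% on day 2. The mutant arrays read 5.76%, 10.9% and 23.7% on day 0 and 12.4%, 8.7% and 8.6% on day 2. The order of the geometric means was mutant day 0 (11.4%), mutant day 2 (9.76%), control day 0 (6.65%) and control day 2 (4.37%). Mutant day 0 overlapped mutant day 2 and control day 0, while those 2 did not overlap each other.

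The day 2 difference of Wnt11 was 1.16 ± 0.43 (SE, log2), or 2.23-fold, and it was not called (adjusted p = 0.101). Over both days it was 0.97 ± 0.32 (adjusted p = 0.0743). Within slides the day 2 differences were 1.54, 0.93 and 1.01. The day 2 difference passed without mutant day 0 replicate 1 (adjusted p = 0.0361) or mutant day 0 replicate 3 (adjusted p = 0.0129), neither of which enters it except through the shared estimate of the spread.

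Wnt5a, a ligand of beta-catenin-independent signalling, was well above background on no array. Its readings ran from 0.318% to 1.22%, and no ratio was formed. The control day 2 arrays read between 0.391% and 0.427% and the mutant day 2 arrays between 0.549% and 1.22%. All 3 mutant day 2 spots were brighter than their background by the scanner software's test, as were 2 of 3 control day 2 spots, 1 of 3 mutant day 0 spots and neither control day 0 spot.

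**Figure D2:**
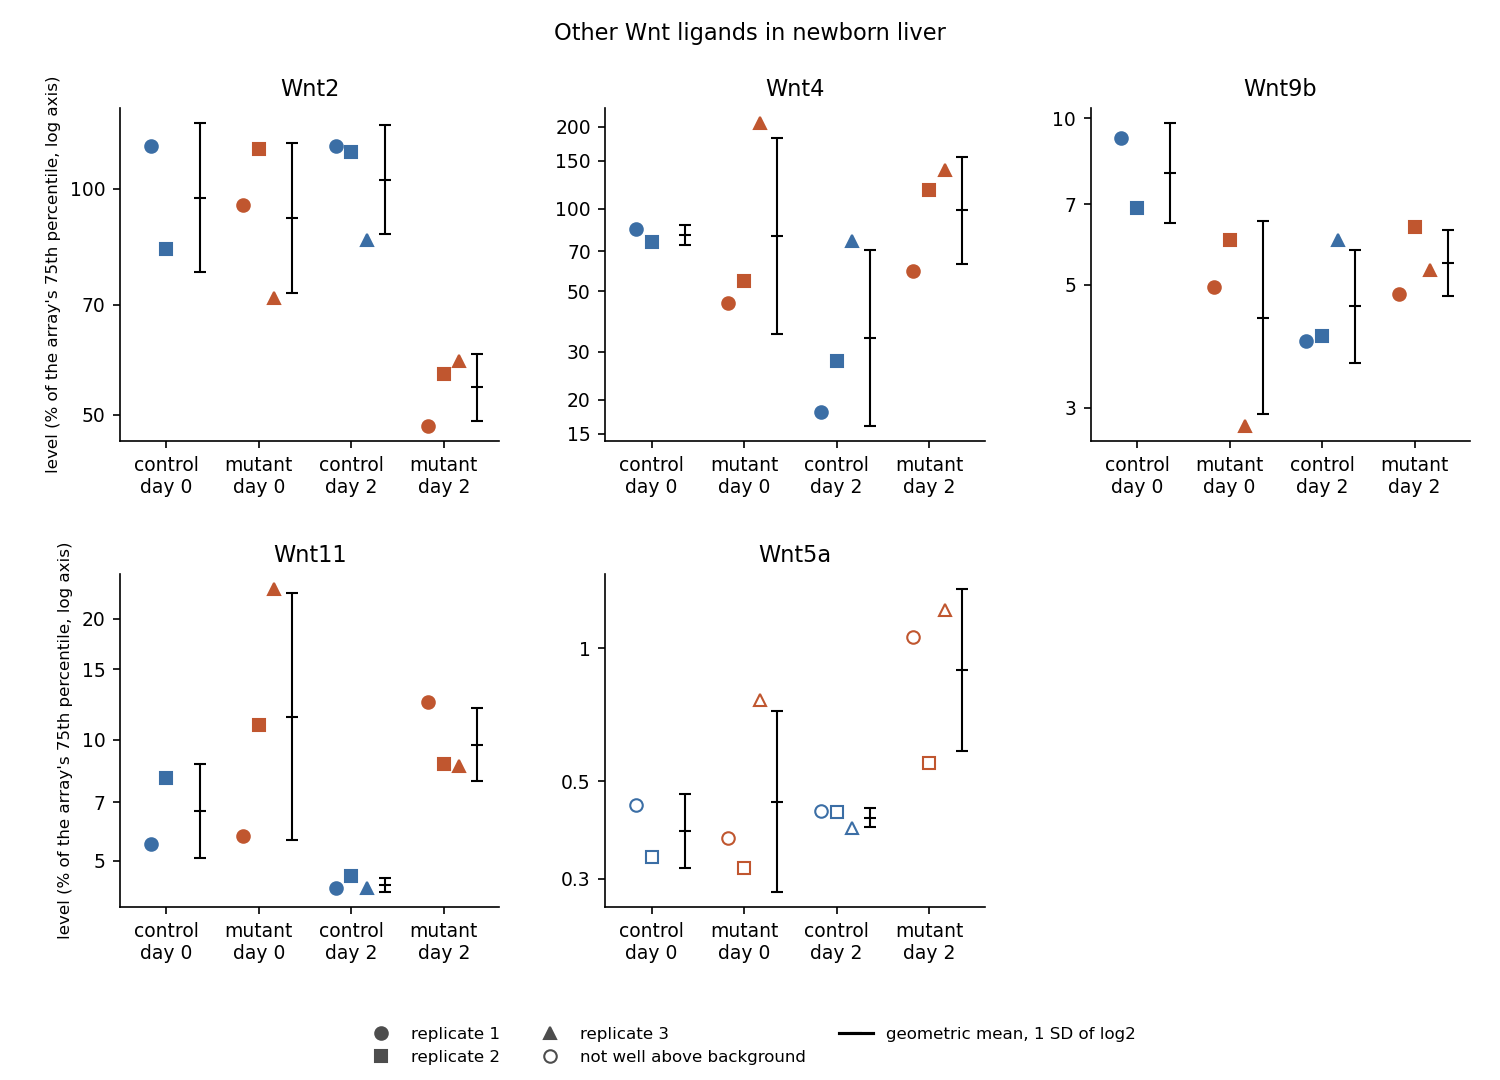
Levels of the other 5 ligands on each array, as a percentage of the array's 75th percentile on log axes, by group, with the geometric mean and 1 SD of log2. Open points are not well above background. The 3 mutant day 2 points of Wnt2, from 48.3% to 59.0%, lie under all other Wnt2 points, and every Wnt5a point is open.

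Axin2, the scaffold of the beta-catenin destruction complex that Wnt signalling itself switches on, had its highest levels in mutant liver on day 2. It read 8.49% and 4.77% in control liver on day 0 and 14.6%, 8.15% and 11.7% on day 2. The mutant arrays read 14.0%, 11.3% and 3.1% on day 0 and 19.8%, 20.6% and 18.1% on day 2. The 3 mutant day 2 arrays lay above all other 8 arrays.

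None of the Axin2 differences was called by limma. On day 2 the mutants lay 0.80 ± 0.51 (SE, log2) above the controls, or 1.75-fold (adjusted p = 0.325), and over both days 0.56 ± 0.38 (adjusted p = 0.379). From day 0 to day 2 the difference was 1.31 ± 0.51 in mutants (adjusted p = 0.0956) and 0.81 ± 0.57 in controls (adjusted p = 0.378). Within slides the mutant was higher on both slides of day 0, by 0.72 and 1.24, and on all 3 of day 2, by 0.45, 1.34 and 0.63. The lowest of all readings, 3.1%, was mutant day 0 replicate 3, and without that array the difference over both days passed at 0.89 (adjusted p = 0.0166). The difference between the days in mutants passed without mutant day 0 replicate 1, at 1.72 (adjusted p = 0.049).

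Lgr5, a receptor for R-spondins that marks stem cells in the gut and pericentral hepatocytes in the liver, had its highest mean in control liver on day 2. It read 6.84% and 9.51% in control liver on day 0 and 13.5%, 13.1% and 11.2% on day 2. The mutant arrays read 12.9%, 7.86% and 8.68% on day 0 and 8.83%, 8.46% and 9.2% on day 2. The day 2 groups did not overlap, though mutant day 0 replicate 1 reached the range of the day 2 controls.

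On day 2 Lgr5 differed by -0.51 ± 0.21 (SE, log2) between mutants and controls, or 1.42-fold, and was not called (adjusted p = 0.133). On day 0 the difference was 0.25 ± 0.23 (adjusted p = 0.659), and the difference between the days' effects was -0.76 ± 0.31 (adjusted p = 0.316). From day 0 to day 2 controls differed by 0.64 ± 0.23 (adjusted p = 0.108) and mutants by -0.12 ± 0.21 (adjusted p = 0.698). The other Lgr5 probe, at chr10:114867740-114867799, was below background on every array, between 0.239% and 0.359%.

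Lef1, a DNA-binding partner of beta-catenin that is also abundant in developing lymphocytes, was lower on day 2 than on day 0 in controls without overlap. The probe printed first read 47.1% and 85.8% in control liver on day 0 and 39.2%, 35.8% and 20.6% on day 2. In mutant liver it read 73.8%, 71.5% and 24.2% on day 0 and 38.6%, 26.9% and 15.8% on day 2. The genotypes overlapped on both days.

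Lef1 differed between the genotypes by -0.34 ± 0.56 (SE, log2) on day 0 (adjusted p = 0.818) and by -0.27 ± 0.50 on day 2 (adjusted p = 0.759). Between the days it differed by -1.05 ± 0.56 in controls (adjusted p = 0.249) and by -0.99 ± 0.50 in mutants (adjusted p = 0.18). The mutant difference passed with the replicate number as a block (-0.99, adjusted p = 0.0473) and without mutant day 0 replicate 3 (-1.51, adjusted p = 0.0396). The gap-spanning Lef1 probe gave -1.07 ± 0.60 and -0.84 ± 0.54 for the same 2 differences, and a further probe, at chr3:131106293-131106352, was below background throughout. The summed level of B lymphoid markers was 645% on mutant day 0 replicate 3 against 1610% to 3270% on the other 4 day 0 arrays, and from 929% to 1730% on day 2. Of 10 such markers 9 were tested, and Rag2 was below background on every array. Between the genotypes on day 2 limma called none of the 9, against 15.9% of all genes. Between the days it called 1, against 10.5% of all genes in controls and 20.0% in mutants. This was Rag1, a recombinase of lymphocyte precursors, which fell by 2.48 ± 0.66 in controls (adjusted p = 0.0443) and by 2.43 ± 0.59 in mutants (adjusted p = 0.0218). The part of these markers in the Lef1 levels was not tested.

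**Figure D3:**
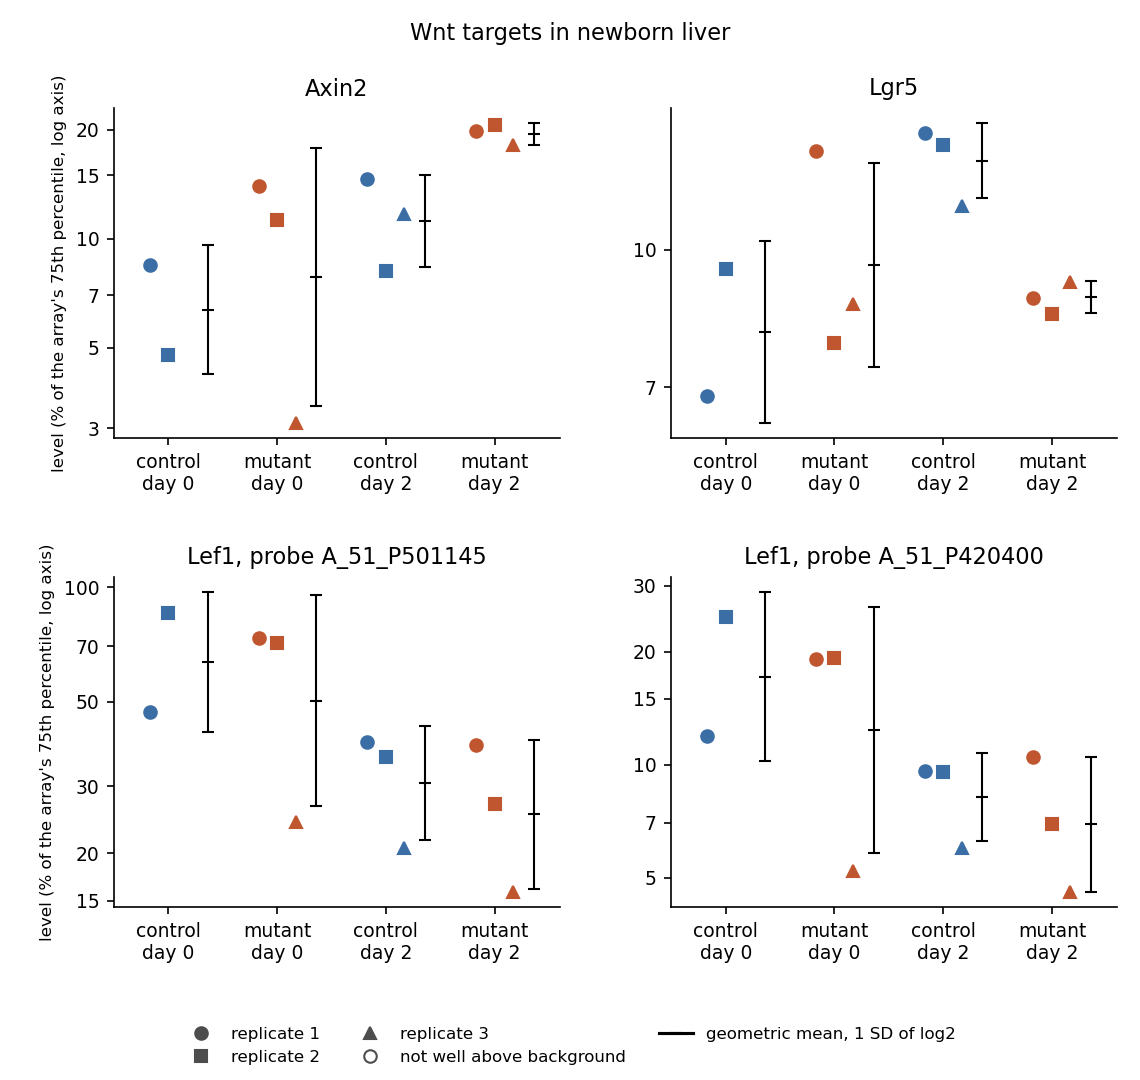
Levels of the 3 targets on each array, with both Lef1 probes that were above background, as a percentage of the array's 75th percentile on log axes, by group, with the geometric mean and 1 SD of log2. The mutant day 2 points of Axin2, from 18.1% to 20.6%, lie above all other Axin2 points, and those of Lgr5, from 8.46% to 9.2%, lie under all 3 control day 2 points.

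**Figure D4:**
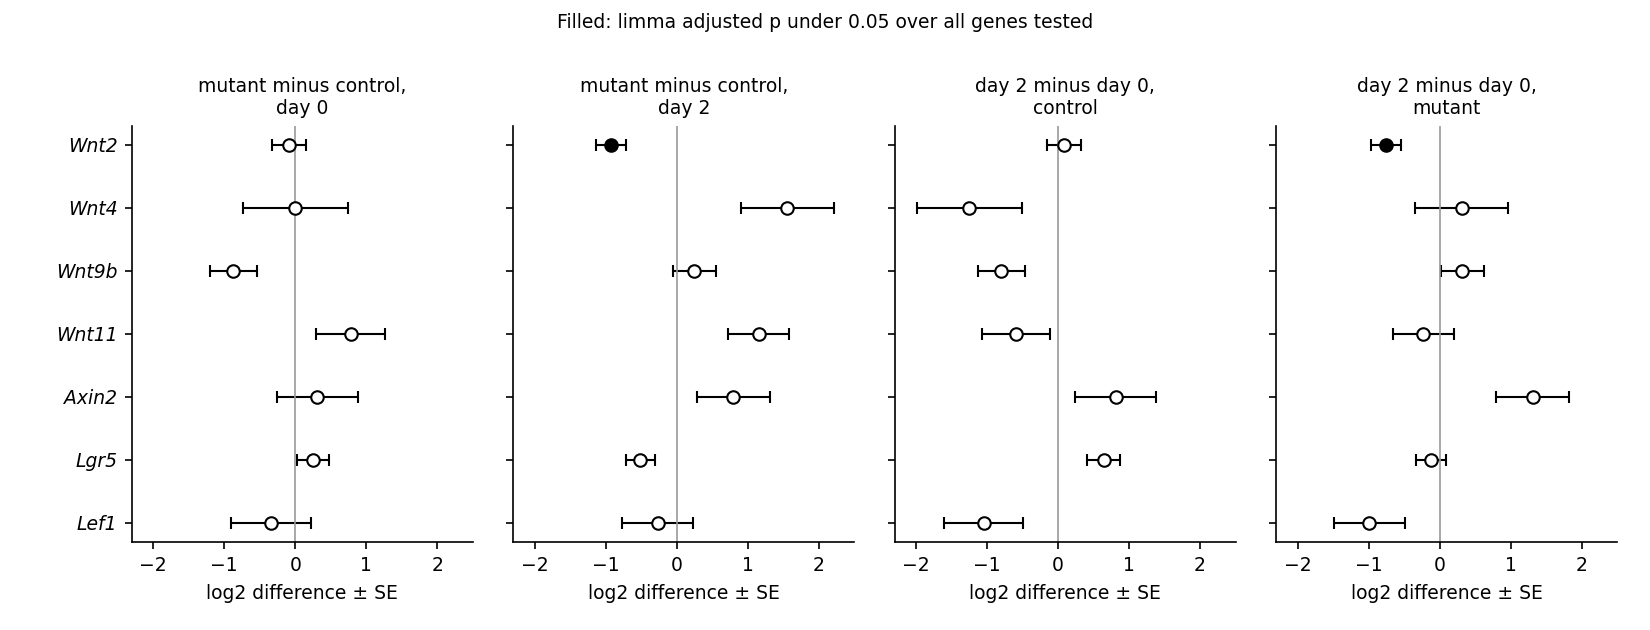
Fitted log2 differences with their standard errors for the 7 tested members other than Wnt10a, between the genotypes on each day and between the days in each genotype. Filled points passed an adjusted p of 0.05 over all genes tested. Wnt2 is filled at day 2 (-0.92) and between the days in mutants (-0.75), and every other point is open.

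Over the 7 tested members the median log2 difference on day 2 was 0.25, against -0.09 over all genes, and between the days it was -0.60 in controls and -0.12 in mutants, against -0.02 and 0.00 over all genes. The members did not move as a unit. On day 2 the ligands Wnt4 and Wnt11 and the target Axin2 had higher fitted levels in mutants, Wnt2 and Lgr5 lower, and Wnt9b and Lef1 stood within 1 standard error of 0. Comparisons that use the same control arrays are not independent of one another, and no correlation between them was formed.

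Of 19 Wnt ligand genes in the full list, all on the array, 9 beside Wnt10a were tested and 8 were well above background on every array. Wnt1 was above background on 9 arrays, Wnt3 on 2 and Wnt16 on 1. Wnt2b, Wnt3a, Wnt5a, Wnt7a, Wnt8a, Wnt8b and Wnt10b were above background on none. Of the 9 tested, limma called 3 higher and 1 lower, Wnt2, in mutants on day 2, against 9.5% and 6.37% of all genes. It called none in either direction on day 0 (1 at an unadjusted p under 0.05).

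The 3 ligands that were higher in mutants on day 2 were Wnt9a, Wnt5b and Wnt7b, and the median over the 9 tested ligands was 0.96, against -0.09 over all genes. Wnt9a, known from joints and blood stem cell development, read 7.74%, 11.5% and 6.48% in control and 18.9%, 18.5% and 16.9% in mutant liver on day 2. It rose by 1.12 ± 0.23 (SE, log2, adjusted p = 0.011), and its call was kept under all 19 alternatives. Wnt5b, close in sequence to Wnt5a, read 12.3%, 15.3% and 14.1% in control and 31.0%, 32.8% and 24.0% in mutant liver, a rise of 1.06 ± 0.22 (adjusted p = 0.0119).

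Wnt5b also rose between the days in mutants, by 0.99 ± 0.22 (adjusted p = 0.0169). Its day 2 call was lost without control replicate 1 (0.98, adjusted p = 0.0507) or mutant replicate 2 (0.98, adjusted p = 0.053) of day 2, and its call between the days without mutant replicate 1 (0.94, adjusted p = 0.0545) or 2 (0.90, adjusted p = 0.0616) of day 2. Wnt7b, a ligand of lung and kidney epithelium, read 10.7%, 13.0% and 7.77% in control and 23.8%, 20.9% and 16.2% in mutant liver on day 2, and rose by 0.96 ± 0.26 (adjusted p = 0.0337). This call was kept under 9 of 19 alternatives. It was lost without either control day 0 array, control day 2 replicate 1 or 3, or mutant day 2 replicate 1 or 2, with adjusted p up to 0.113. It was also lost with normexp (0.54, adjusted p = 0.0942), in the RMA values (0.69, adjusted p = 0.0678), with no filter on dim probes (adjusted p = 0.0506) and with pup sex as a covariate (adjusted p = 0.0519). Of the 9 ligands, 5 were called on day 2 both with the replicate block and without mutant day 0 replicate 3, each time 4 higher and 1 lower. Leaving out that array also raised the calls over all genes on day 2 from 2504 to 4610.

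Of the genes that release Wnts or strengthen their signal, 5 of 6 were tested (Porcn, Wls, Rspo1, Rspo3 and Rspo4) and limma called none in any of the 6 comparisons. Over all genes the shares called ran from 0.273% to 20.0%, so this count does not set the 5 genes apart. None had an unadjusted p under 0.05 between the genotypes on either day, and 1 did between the days in each genotype. Rspo1, an R-spondin that Lgr5 and Lgr4 bind, averaged 292% in control day 0, 143% in mutant day 0, 98.0% in control day 2 and 143% in mutant day 2 liver.

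Of 17 tested receptors and co-receptors, 7 were higher and none lower in mutants on day 2, against 9.5% and 6.37% of all genes. The median was 0.25 over the 17, against -0.09 over all genes. Fzd2 rose by 1.91 ± 0.23 (SE, log2), or 3.75-fold (adjusted p = 0.000742), from 8.58%, 6.67% and 8.08% in controls to 32.5%, 34.9% and 21.5% in mutants. Lgr4, the relative of Lgr5 that also binds R-spondins, rose by 1.88 ± 0.30, or 3.68-fold (adjusted p = 0.00349), from 73.2%, 90.8% and 81.2% to 254%, 288% and 367%. Fzd9 rose by 1.40 ± 0.18, or 2.65-fold (adjusted p = 0.000895).

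The calls of Fzd2, Lgr4 and Fzd9 on day 2 were kept under all 19 alternatives. Ror1, a receptor of Wnt5a, was below background on every control array and read 4.41%, 2.62% and 3.71% in mutants on day 2, at least 2.27-fold higher (adjusted p = 0.000886). With the normexp background correction it was not called (0.36, adjusted p = 0.0922). Ror1 passed the filter on dim probes only through mutant day 2, the group where it was high. Its p-values, and its place among the receptors called, rest in part on that choice and on readings below background. Fzd3 (1.53 ± 0.40, adjusted p = 0.0297), Fzd6 (1.57 ± 0.41, adjusted p = 0.0295) and Fzd7 (0.90 ± 0.27, adjusted p = 0.0493) were also called. Fzd3 and Fzd7 lost the call without any 1 of the 6 day 2 arrays, with adjusted p up to 0.108 and 0.149, and Fzd6 without any of them but control replicate 3, with adjusted p up to 0.103.

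On day 0 only Fzd9 passed among the receptors, at 0.99 ± 0.20 (SE, adjusted p = 0.0371), and it kept the call under 7 of 19 alternatives, with adjusted p of 0.102 and 0.332 without control replicate 1 and 2. Without mutant day 0 replicate 3 the number called on day 0 was 3, and with the replicate block it was 0. Leaving out that array also raised the calls over all genes on day 0 from 344 to 840. Over both days 7 receptors were higher and none lower, against 8.73% and 6.73% of all genes. Fzd1, at 0.36 (limma, adjusted p = 0.0424), was called there and not on day 2 alone. Between the days in mutants Ror1 and Fzd9 rose, and Ror2 fell by 0.92 (adjusted p = 0.0271). Each of these 3 lost its call without 1 or more of the mutant arrays, with adjusted p up to 0.0599 for Ror1, 0.0756 for Fzd9 and 0.0995 for Ror2, each at its highest without mutant day 2 replicate 3.

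Of 13 tested inhibitors that act outside the cell or at its surface, 2 were higher and 1 lower in mutants on day 2. The shares over all genes were 9.5% and 6.37%, and the median over the 13 was -0.13. Dkk3, a member of the Dickkopf family of secreted Wnt modulators, rose by 1.66 ± 0.26 (SE, log2), or 3.16-fold (adjusted p = 0.00283), from 9.26%, 11.1% and 7.43% to 26.5%, 31.2% and 29.3%. That call was kept under all 19 alternatives. Sfrp1, a soluble Frizzled-like protein that binds Wnts, rose by 1.20 ± 0.34 (adjusted p = 0.0416), and was called under 7 of 19 alternatives, being lost without any array but mutant day 0 replicates 2 and 3, with adjusted p up to 0.132, and with no filter on dim probes (0.0611), the replicate block (0.0583) or pup sex (0.0525). Sfrp4, its relative, fell by 1.85 ± 0.46 (adjusted p = 0.0257), with adjusted p of 0.0957 without control day 2 replicate 1, 0.0836 without control replicate 2, 0.0896 without mutant replicate 2 and 0.0783 without mutant replicate 3. Without mutant day 0 replicate 3, 5 inhibitors were called on day 2, 2 higher and 3 lower, while calls over all genes rose from 2504 to 4610. Dkk1, a blocker of Lrp5 and Lrp6, was at least 2.15-fold higher in mutants on day 0 (adjusted p = 0.032) and was below background in both day 2 groups. It lost that call without control day 0 replicate 2 (1.10, adjusted p = 0.297), mutant day 0 replicate 1 (1.5, 0.0859) or 2 (1.41, 0.0807), and without replicate 1 of either day 2 group (adjusted p = 0.0551 and 0.0602). With normexp (0.38, adjusted p = 0.297) and in the RMA values (0.60, adjusted p = 0.0784) it was not called either. Dkk1 passed the filter on dim probes only through mutant day 0, the group where it was high, so its p-values rest in part on that choice.

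Inside the cell, 6 of 22 tested genes of Wnt transduction were higher and none lower in mutants on day 2. The shares over all genes were 9.5% and 6.37%, and the median over the 22 was 0.31. Ctnnb1, which encodes beta-catenin, read 513%, 463% and 559% in control and 1000%, 967% and 906% in mutant liver, a rise of 0.91 ± 0.23 (SE, log2, adjusted p = 0.0271). It lost the call without any day 2 array but control replicate 3, with adjusted p from 0.0647 to 0.0894. Tcf7l1, a Tcf factor that mostly represses, rose by 1.5 ± 0.25 (adjusted p = 0.00458), and Nkd2, an inhibitor of Dishevelled, by 1.66 ± 0.29 (adjusted p = 0.00489). Bcl9, a beta-catenin co-activator, rose by 0.80 ± 0.14 (adjusted p = 0.0053), and Dvl2, a Dishevelled protein, by 0.77 ± 0.13 (adjusted p = 0.00401). These last 4 were called under all 19 alternatives. On day 0 limma called none of the 22, and 1 had an unadjusted p under 0.05. Over both days the number called was 5, and 10 without mutant day 0 replicate 3. Calls over all genes over both days rose from 2439 to 3961 when that array was left out.

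Of 16 tested general Wnt targets, Axin2, Lgr5 and Lef1 among them, 3 were higher and none lower in mutants on day 2. The shares over all genes were 9.5% and 6.37%, and the median over the 16 was 0.37. Sox9, a factor of bile duct cells and also a known target of Notch, rose by 5.16 ± 0.25 (SE, log2), or 35.7-fold (adjusted p = 1.15e-05). Ccnd1, a cyclin of the early cell cycle, rose by 3.00 ± 0.36, or 7.99-fold (adjusted p = 0.000662), and both calls were kept under all 19 alternatives. Nkd1, an inhibitor that Wnt signalling switches on, rose by 0.57 ± 0.15 (adjusted p = 0.0304). This call was kept under 9 of 19 alternatives, being lost without any array but the 3 of mutant day 0, with adjusted p up to 0.109, and with no filter on dim probes (0.0502) or the replicate block (0.0583). Without mutant day 0 replicate 3, 7 targets were called on day 2, 5 higher and 2 lower, and with the replicate block 2, both higher. Leaving out that array raised the calls over all genes on day 2 from 2504 to 4610.

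Sp5, a repressor closely tied to Wnt signalling, had a time course of its own among the targets. It was below background on both control day 0 arrays, at 0.414% and 0.358%, and read 15.1%, 12.3% and 16.0% in control liver on day 2. In mutant liver it read 14.7%, 17.3% and 2.09% on day 0, the last of these below background, and 12.2%, 28.6% and 20.8% on day 2. Sp5 was at least 9.38-fold higher in control liver on day 2 than on day 0 (adjusted p = 0.006). On day 0 it was at least 5.28-fold higher in mutants (adjusted p = 0.0227). The rise in controls lost its call without control day 0 replicate 2 (5.12, adjusted p = 0.0586). The day 0 call was lost without either control array (adjusted p = 0.133 and 0.195), mutant replicate 1 (adjusted p = 0.0696) or mutant replicate 2 (adjusted p = 0.0563), with normexp (1.27, adjusted p = 0.0655) and in the RMA values (1.77, adjusted p = 0.149). On day 2 the genotypes differed by 0.43 ± 0.70 (adjusted p = 0.72).

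The pericentral hepatocyte genes depend on Wnt signals from the central veins in adult liver. Of 13 tested, 5 were lower and none higher in mutants on day 2, against 6.37% and 9.5% of all genes. The median over the 13 was -1.54. Over both days 7 were lower and none higher, against 6.73% and 8.73% of all genes. Oat, an ornithine enzyme, had a day 2 difference of 0.41 ± 0.29 (SE, adjusted p = 0.383). On day 2 Tbx3, a transcription factor, fell by 1.62 ± 0.27 (SE, log2, adjusted p = 0.00449), and Nr1i3, a receptor for foreign compounds, by 1.83 ± 0.33 (adjusted p = 0.0061). Slc13a3, a carrier of dicarboxylates, fell by 1.54 ± 0.28 (adjusted p = 0.00615) and Avpr1a, the vasopressin receptor of the liver, by 1.55 ± 0.29 (adjusted p = 0.00686). These 4 calls were kept under all 19 alternatives, and without mutant day 0 replicate 3 the number called on day 2 was 9. Calls over all genes on day 2 rose from 2504 to 4610 when that array was left out.

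Cyp1a2, a pericentral enzyme of drug metabolism, read 5.95% and 1.51% in control liver on day 0, the second below background, and 267%, 235% and 127% on day 2, and in mutant liver it was below background on day 0 and read 51.4%, 22.3% and 65.9% on day 2. The day 2 fall of 2.24 ± 0.56 was called (SE, log2, adjusted p = 0.0265), but not without control replicate 1 or 2 or mutant replicate 1 or 2 of day 2, where adjusted p ran from 0.0581 to 0.0952. Glul, glutamine synthetase, read 1680%, 1740% and 1520% in control and 1070%, 1180% and 1520% in mutant liver on day 2, and the difference of -0.41 ± 0.22 was not called (adjusted p = 0.258). Glul was called lower in mutants over both days, by 0.67 ± 0.17 (limma, adjusted p = 0.0276). Periportal genes mark the opposite end of the hepatocyte row, and 9 were tested. Of these, limma called 1 higher (Cdh1, 0.90, adjusted p = 0.00995) and 1 lower (Gls2, -1.43, adjusted p = 0.00913) on day 2. The shares over all genes were 9.5% and 6.37%, and the median over the 9 was -0.58. Cyp2f2 differed by -2.49 ± 1.03 and Sds by 1.83 ± 0.64 on day 2, both uncalled (adjusted p = 0.137 and 0.0846). Over both days limma called Cdh1 (0.57) and Sds (1.73) higher and Gls2 (-1.14) and Cps1 (-1.03) lower. The shares over all genes were 8.73% and 6.73% there, and the median over the 9 was -0.7. Without mutant day 0 replicate 3, 4 of the 9 were called on day 2, 2 higher and 2 lower, while calls over all genes rose from 2504 to 4610.

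**Figure D5:**
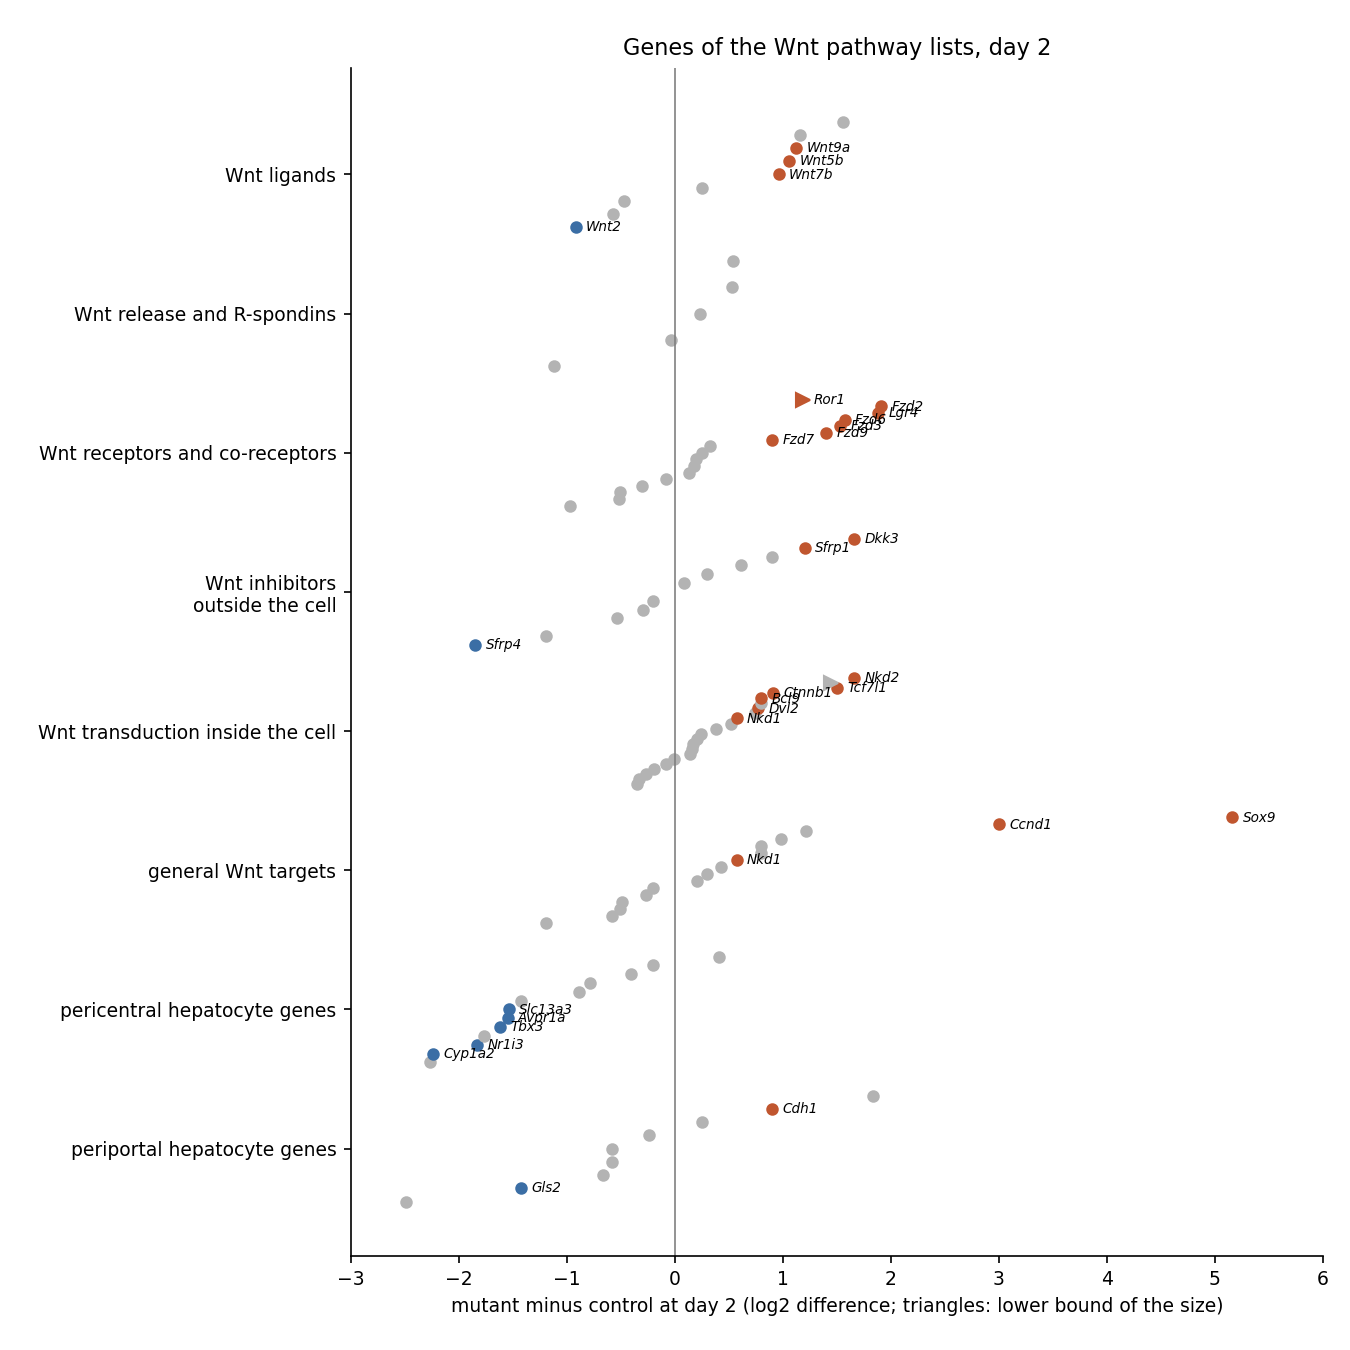
Log2 difference between mutant and control liver on day 2 for each tested gene of the 8 lists, 1 row of points per list, with Wnt10a left out. Orange points were higher and blue points lower at an adjusted p of 0.05, grey points were not called, and triangles mark a lower bound of the size. Receptors such as Fzd2 (1.91) and Lgr4 (1.88) stand to the right, and pericentral genes such as Tbx3 (-1.62) to the left.

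Markers of several cell types differed between the same groups as these genes. Their counts stand beside shares over all genes of 9.5% higher and 6.37% lower in mutants on day 2. The summed level of bile duct cell markers ran from 926% to 1680% in control and from 22100% to 26600% in mutant liver on day 2, and from 2140% to 2420% and from 9250% to 34000% on day 0. The brightest of them, Spp1, averaged 1090% in control and 21000% in mutant liver on day 2. All 6 tested bile duct markers were higher in mutants on day 2, and Sctr was below background on every array. Hepatocyte markers summed to between 101000% and 123000% in control and between 74500% and 81700% in mutant liver on day 2, with 2 of 7 tested lower. Erythroid markers summed to between 90600% and 115000% in control and between 42300% and 61000% in mutant liver, with 5 of 8 tested lower. Stellate cell and fibroblast markers summed to between 5500% and 6300% in control and between 6420% and 11600% in mutant liver, with 3 of 10 tested higher. Their part in the differences of the receptors, targets and pericentral genes was not tested.

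Keratinocyte and squamous epithelial markers, from a tissue where Wnt10a is known, summed to between 1980% and 2590% in control and between 2230% and 2750% in mutant liver on day 2, and to between 917% and 1830% on day 0. Perp and Sfn were the brightest of them, at 1340% and 841% in control liver on day 2. Of 8 tested, none was higher and 1 was lower in mutants on day 2, against 9.5% and 6.37% of all genes. This was Trp63, a factor of basal epithelial cells, which averaged 5.04% in control liver on day 2 and was below background on all 3 mutant arrays of that day, at least 3.83-fold lower (adjusted p = 0.0299). On day 0 it averaged 23.8% in control and 2.21% in mutant liver, and was above background on both control arrays and on 2 of 3 mutant arrays. Trp63 passed the filter on dim probes only through the control groups, where it was high, so its p-value rests in part on that choice. Markers of pancreas and gut epithelium summed to between 1710% and 2850% in control and between 2190% and 3150% in mutant liver on day 2, and to between 522% and 615% on day 0, with 4 of 8 tested and Pnlip below background on every array. Fabp2 averaged 361% in control and 151% in mutant liver on day 0, and 2060% and 2620% on day 2. The other tested genes, Cpa1, Cela1 and Vil1, had lower means on day 2 than on day 0 in both genotypes. Of the 4, limma called 1 higher in mutants on day 2, Vil1 (1.96 ± 0.33, adjusted p = 0.0045), and none lower, against 9.5% and 6.37% of all genes. The part of these epithelial markers in the Wnt10a levels was not tested. Kupffer cell markers summed to between 8270% and 13700% over all arrays, and of 8 tested 3 were lower and none higher in mutants on day 2 (Adgre1, C1qb and Csf1r). T and NK cell markers summed to between 100% and 207%, and megakaryocyte markers to between 8100% and 9020% in control and between 4220% and 4700% in mutant liver on day 2. In each of these 2 lists 6 markers were tested, and limma called none between the genotypes on day 2. Of the megakaryocyte markers, 5 had an unadjusted p under 0.05 there.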

How the data were processed

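Spot intensities came from the deposited scanner files of 11 one-colour arrays. Per the file headers, Agilent Feature Extraction 9.5.3.1 had subtracted background and detrended each array's processed signal. A deposited set of log2 values for 33322 probes, made by the authors with RMA per the submitters' processing notes, served as an alternative. Each processed signal was divided by the 75th percentile of its array's non-control spots and put on a log2 scale, without spots marked as outliers. Probes well above background throughout 1 or more groups were kept (27094 of 41174), and a gene was read from its brightest probe. Symbols came from RefSeq through an accession for 23477 probes, through the file's symbol for 6678 and through a synonym for 2891. The file alone named another 1228, and 6900 were unnamed.

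The limma package (3.58.1, R 4.3.3, with data.table, version 1.17.8) fitted 1 coefficient per group over all 11 arrays, with 7 residual and 2.38 prior degrees of freedom. Benjamini-Hochberg adjustment covered 15771 genes. The labels name no separate litters, so a p-value reflects the spread between these livers and no more. The tables and figures were made in Python 3.11.15 with pandas 2.3.3 and numpy 2.4.6, and the fit was tested on simulated data.

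The members, the 8 pathway lists, the 11 marker lists and the tests were chosen with earlier results of these data known. Named were all members, of each pathway list up to 4 genes with the smallest p over both days and up to 3 more in each other comparison, and the 8 genes most like Wnt10a, of which 1 is not reported here. Replicate numbers mark the slide. Across the genotypes on day 2, arrays of the same number correlated in their deviations from the group means at 0.228 to 0.279, and others at -0.21 to -0.0525, so a replicate block is given where it changed a call. Deviations from a group mean sum to 0, so these negative values follow in part from the positive ones. Between the days, arrays of the same number correlated at -0.00704 and 0.129 in controls and at -0.0276 to 0.0993 in mutants. Alternatives were the normexp correction (offset 50), quantile normalization, the RMA values, no filter or a stricter one, the block, pup sex, probe-wise tests and leaving out each array.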

Additional observations from a re-analysis of the deposited data

Results flagged for a closer look

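In 3 genes of the pathway lists the groups differed without overlap, in opposite directions, between the days in the 2 genotypes or between the genotypes on the 2 days. Groups without overlap were common, at 31.9% to 56.9% of all genes tested in a single contrast. The share of all genes with opposite directions is not given here, so the count is a description. Wnt9a differed between the genotypes by -0.49 (log2) on day 0 and by 1.12 on day 2, and between the days by -0.88 in controls and by 0.73 in mutants. The test of that difference did not pass (limma, adjusted p = 0.102). Apc, a scaffold of the beta-catenin destruction complex, differed between the days by -0.23 in controls and 0.26 in mutants (adjusted p of the difference 0.407), and Bcl9 by -0.30 and 0.23 (adjusted p of the difference 0.299).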

How the results depend on the processing

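The number of genes called moved by over 1.5 times as follows. With pup sex as a covariate it was 1007 against 2439 over both days, 29 against 344 at day 0, 285 against 1663 between the days in controls, 1861 against 3149 in mutants, and 5 against 43 for the difference of the genotype effects. With no filter on dim probes it was 227 at day 0, 1102 between the days in controls and 17 for the difference of the effects, which also gave 19 with quantile normalization and 12 with the replicate block. Leaving out 1 array gave 1252 to 3961 over both days, 57 to 840 at day 0, 1343 to 4610 at day 2, 2 to 244 for the difference of the effects, 213 to 4169 between the days in controls and 1296 to 3403 in mutants. The highest of the first 5 ranges came without mutant day 0 replicate 3. The cause was not tested.

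Some uncalled member differences changed sign. Wnt2 between the days in controls was -0.14 with pup sex. Wnt9b at day 2 and between the days in mutants was -0.11 and -0.20 with normexp. Lgr5 between the days in mutants was 0.03 with quantile normalization and with the RMA table. Lef1 at day 0 was 0.05 with the replicate block, which changed no other sign and no member's call but those of Wnt4 and Lef1 given above. Leaving out 1 array gave -0.32 to 0.14 for Wnt2 at day 0 and -0.15 to 0.31 for it between the days in controls. Between the days in mutants it gave -0.09 to 1.00 for Wnt4, -0.72 to 0.30 for Wnt11 and -0.26 to 0.10 for Lgr5. At day 0 it gave -0.11 to 0.98 for Axin2 and -0.77 to 0.19 for Lef1, and at day 2 -0.57 to 0.07 for Lef1.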
